A study of Mus musculus with 6 samples.

Results

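Small nucleolar RNA genes were examined in LSK cells, the lineage-negative, Sca1-positive, cKit-positive fraction of mouse bone marrow in which blood stem cells and early progenitors are found. A gene was taken as a member when a probe set was annotated to it alone and its symbol began with Snora or Snord followed by a number. This gave 75 probe sets and 73 genes out of 22180 genes measured, 26 of the H/ACA class (Snora) and 47 of the C/D class (Snord), and the probe set with the highest mean over the 6 arrays stood for each gene. RNA was hybridised to Affymetrix MoGene ST arrays, with 3 arrays labelled Tifab+/+ (Tifab_WT) and 3 labelled Tifab-/- (Tifab_KO). Tifab is a relative of the TRAF6 adaptor gene Tifa. The labels describe LSK cells sorted from mice that carried transplanted marrow of either genotype, give an age of 3 months and 3 mice per group, and describe injection into lethally irradiated syngeneic Boy/J recipients (7.0 Gy, and 4.75 Gy 3 hours later) in both groups. Whether the sort separated donor from host cells is not stated in the labels.

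Small nucleolar RNAs (snoRNAs) are short, stable RNAs that guide chemical changes in ribosomal RNA. H/ACA snoRNAs guide pseudouridylation by dyskerin, and C/D box snoRNAs guide ribose methylation by fibrillarin, while a few members of both classes are needed to cut the ribosomal RNA precursor. Most vertebrate snoRNAs are released from introns of host genes, many of which encode ribosomal proteins or translation factors. Inherited defects of dyskerin and its partners cause bone marrow failure, and whether that failure comes through snoRNAs is not addressed by these data.

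Values are the deposited log2 probe set signals. A difference is the mean of the Tifab_KO arrays minus the mean of the Tifab_WT arrays in log2 units, and its SE and p come from limma fitted over all 22180 genes, with Benjamini-Hochberg adjustment over all of them. Tifab itself gave 4.99, 5.37 and 5.53 under the Tifab_WT label and 5.21, 5.12 and 5.26 under the Tifab_KO label, which overlap, so its probe set gave no check of the labels, and every direction here rests on them. Macroh2a1, a histone variant gene, did separate the labels, with 9.88, 10.03 and 9.97 against 9.07, 8.90 and 9.22 (-0.90, limma adjusted p = 0.186). The 8 LSK markers examined had mean levels between 5.52 and 10.5, with Kit at 9.56 and Cd34 at 10.5. At an unadjusted p under 0.05, Meis1 was higher (0.39) and Hlf lower (-0.33) in Tifab_KO, both without overlap between the groups. The 4 T and NK cell markers lay between 3.21 and 4.64 and the 4 macrophage markers between 3.00 and 5.19; at an unadjusted p under 0.05 the macrophage genes Vcam1 and Cd5l were lower in Tifab_KO (-0.74 and -1.45) and C1qa was higher (0.52). The 2 erythroid markers measured lay between 4.81 and 4.84 and the 4 of stroma and endothelium between 3.71 and 7.29. Neutrophil markers were present, at 6.23 to 11.5 over 6 genes, with a mean per array of 8.88 to 9.32 in Tifab_WT and 8.65 to 9.17 in Tifab_KO. Among them Mmp8 was lower in Tifab_KO at an unadjusted p under 0.05 (-0.85). The 3 B cell markers differed widely in level, with the immunoglobulin gene Ighm at 12.4, Cd79a at 6.85 and Ms4a1 at 3.38. Their mean per array was 7.01 to 8.10 in Tifab_WT and 7.47 to 7.77 in Tifab_KO. Cd79a ranged from 5.44 to 8.01 in the Tifab_WT arrays and from 6.52 to 7.39 in the Tifab_KO arrays. The part of these other cells in the differences below was not tested. In a sorted pool, fewer cells of a type and less RNA per cell cannot be told apart.

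No snoRNA gene passed an adjusted p of 0.05 in limma, and neither did any other gene (0 of 22180, 0%). The nearest members were mostly C/D box RNAs that were lower in the Tifab_KO arrays. At an unadjusted p under 0.05 there were 10 members, 2 higher and 8 lower. This is 13.7% of the 73, beside 10.3% of all genes (2274), where 4.74% were higher and 5.51% were lower. With all 6 arrays the share thus lay near the background and is not a result about snoRNAs. The groups did not overlap for 8 members (2 higher, 6 lower), 11% beside 16.1% of all genes, of which 7.75% were higher and 8.37% lower. By class, 8 of 47 Snord genes (17%) and 2 of 26 Snora genes (7.69%) had an unadjusted p under 0.05; whether the classes differ in this share was not tested. Leaving out Tifab_WT replicate 3 raised the members under that p to 15 lower and 6 higher, 21 of 73, beside 12.2% of all genes. Each of Tifab_WT replicate 2 (5 higher) and Tifab_KO replicates 1, 2 and 3 (4 higher each) moved the higher count by more than 1.5 times. Without Tifab_KO replicates 1, 2 and 3, 16, 16 and 12 members were under that p, beside 7.35%, 8.05% and 7.84% of all genes. Without Tifab_WT replicates 1 and 2 there were 12 and 13, beside 9.36% and 10.3%. Whether these shares differ from those of all genes was not tested.

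**Figure D1:**
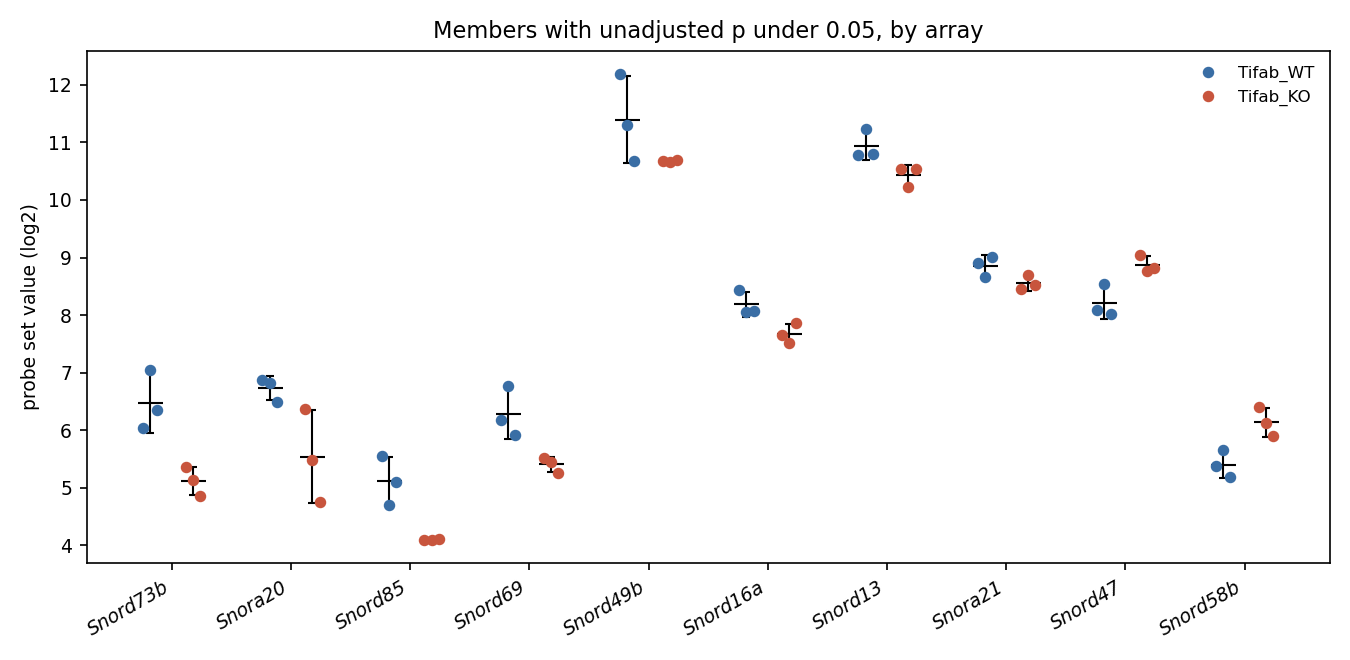
Log2 probe set values of the 10 members with an unadjusted p under 0.05 in limma, ordered by their difference. Each point is 1 array (3 Tifab_WT, 3 Tifab_KO), with the group mean as a dash and 1 SD as a bar; the 8 members on the left were lower and the 2 on the right higher in Tifab_KO, and Snord49b and Snora21 overlap between the groups.

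Among the C/D box RNAs, Snord73b had the lowest p. It was classed as C/D by its symbol, while the RefSeq gene table lists it, alone among the members, as an snRNA. Its probe set read 6.03, 7.04 and 6.34 in the Tifab_WT arrays and 5.35, 5.13 and 4.86 in the Tifab_KO arrays. The groups did not overlap, and the difference of -1.36 ± 0.26 (SE, n = 3 per group, limma adjusted p = 0.297) corresponds to 0.390 of the Tifab_WT signal. Snord85 read 5.55, 4.70 and 5.09 against 4.093, 4.096 and 4.107, a difference of -1.02 ± 0.21 (SE, limma adjusted p = 0.297). All 3 Tifab_KO arrays lay within a few hundredths of each other and below the lowest Tifab_WT array. Snord69 read 6.18, 6.77 and 5.91 against 5.51, 5.44 and 5.25 (difference -0.89 ± 0.22, SE), again without overlap. Snord16a read 8.44, 8.06 and 8.07 against 7.66, 7.51 and 7.85, a smaller difference of -0.52 ± 0.16 (SE) at a brighter level.

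Snord47 and Snord58b were the members on the higher side. Snord47 read 8.09, 8.53 and 8.01 in the Tifab_WT arrays and 9.05, 8.76 and 8.81 in the Tifab_KO arrays, a difference of 0.66 ± 0.16 (SE, limma adjusted p = 0.334) or 1.58 times the signal. Snord58b read 5.37, 5.65 and 5.18 against 6.39, 6.11 and 5.90, a difference of 0.74 ± 0.19 (SE, limma adjusted p = 0.334). Neither gene's groups overlapped.

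Snord49b, the brightest Snord gene, had a difference set largely by a single array. It read 12.19, 11.31 and 10.69 in the Tifab_WT arrays and 10.66 to 10.69 in the 3 Tifab_KO arrays, so Tifab_WT replicate 3 lay at the Tifab_KO level. The difference of -0.72 ± 0.29 (SE) came down to -0.32 without Tifab_WT replicate 1. For the other 9 members under an unadjusted p of 0.05, leaving out any single array moved the difference by less than 1.5 times towards 0, and the sign was kept in all 10.

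The 2 H/ACA genes under that p were Snora20 and Snora21. Snora20 read 6.87, 6.82 and 6.49 in the Tifab_WT arrays and 6.36, 5.48 and 4.75 in the Tifab_KO arrays, a difference of -1.20 ± 0.34 (SE, limma adjusted p = 0.354). The groups did not overlap, but the Tifab_KO arrays spread with an SD of 0.81 against 0.21 in Tifab_WT, and Tifab_KO replicate 1 lay close to the lowest Tifab_WT array. Snora21 read 8.90, 8.67 and 9.01 against 8.45, 8.69 and 8.51, a difference of -0.31 ± 0.13 (SE), with Tifab_KO replicate 2 above the lowest Tifab_WT array. The next 6 Snora genes by p were Snora16a (-0.42 ± 0.19, SE), Snora33 (-0.33 ± 0.15), Snora19 (-0.75 ± 0.37), Snora15 (-0.39 ± 0.21), Snora30 (-0.69 ± 0.42) and Snora47 (0.29 ± 0.18). Each of these 6 moved by more than 1.5 times when some single array was left out, with no change of sign. Snora16a became -0.23 without Tifab_KO replicate 2, Snora15 became -0.18 without Tifab_WT replicate 3, and Snora19 became -0.32 without Tifab_WT replicate 2 and -0.45 without Tifab_KO replicate 2. Snora33 became -0.50 and -0.20 without Tifab_WT replicates 1 and 2. Snora30 became -0.41, -1.26 and -0.39 without Tifab_KO replicates 1, 2 and 3, and Snora47 became 0.17, 0.44, 0.43 and 0.16 without Tifab_WT replicates 2 and 3 and Tifab_KO replicates 1 and 3. A second, dimmer probe set of Snora33 gave a difference of 0.061 at a mean level of 6.58, against 9.77 for the brighter one, and both probe sets of Snora19 held identical values.

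A fixed list of snoRNAs linked to processing of the ribosomal RNA precursor held 5 members, with mean levels from 6.14 to 10.7. Whether each of them takes part in cutting the precursor was not tested. Snord13, which pairs with the precursor of the small subunit RNA, read 10.79, 11.23 and 10.81 in the Tifab_WT arrays and 10.53, 10.23 and 10.54 in the Tifab_KO arrays. The groups did not overlap, and the difference was -0.50 ± 0.13 (SE, limma adjusted p = 0.342). Snord118, also known as U8 and needed for the large subunit RNAs, read 10.01, 10.24 and 10.75 against 10.43, 10.38 and 10.36, a difference of 0.058 ± 0.16 (SE) whose sign turned with cyclic loess (-0.028) and with quantile normalization. Snord22, needed for the small subunit RNA, had -0.42 ± 0.24 (SE) with overlapping groups. Its H/ACA counterparts Snora73a and Snora73b, close copies of the U17 RNA whose probe sets may share targets, had -0.046 ± 0.27 and -0.31 ± 0.31 (SE). Snora73b became -0.024 without Tifab_KO replicate 2, -0.080 without Tifab_WT replicate 3, -0.53 without Tifab_KO replicate 1 and -0.61 without Tifab_WT replicate 1, and Snord22 became -0.67 and -0.27 without Tifab_WT replicates 1 and 2. Snord13 was thus the member of these 5 with an unadjusted p under 0.05. The same list named the Snord3 (U3) and Snord14 families. Snord3 had no probe set of its own or shared with other genes. Snord14a and Snord14e shared theirs with Rps13 and Hspa8, so they were not members. Those probe sets had 0.19 ± 0.13 and -0.21 ± 0.22 (SE), with overlapping groups.

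The classes were compared by level as they appear on the arrays, where the signals of different probe sets have no common scale and are not per length. The median over genes of the mean over 6 arrays was 6.47 for Snora and 6.10 for Snord, both above the 4.42 of all genes. Of the 26 Snora genes 10 were in the brightest of 10 equal bands of all genes by signal (38.5%), and of the 47 Snord genes 11 were (23.4%). The brightest were Snora44 at 10.6, Snora23 at 9.98, Snora33 at 9.77 and Snora31 at 9.17 among H/ACA RNAs, and Snord49b at 11.04, Snord13 at 10.7, Snord104 at 10.6 and Snord89 at 10.4 among C/D RNAs. At the dim end, Snora35 had a mean of 2.88 and Snord90 of 1.94. Snora35 lies within Htr2c, a serotonin receptor gene of the brain, whose own probe set had 2.55. In each of the 6 arrays the Snora median was above the Snord median, by 0.49 to 0.80. These medians are taken within each array, so their gaps need not match that of the medians of means above. Annotated lengths ran from 56 to 205 bases for Snora (median 118.5) and from 48 to 221 for Snord (median 68), in the RefSeq table of GRCm38.p6.

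By array, the Snora median separated the labels, while the Snora mean and the Snord median did not. The Snora median was 6.81, 6.85 and 6.72 in the Tifab_WT arrays and 6.54, 6.52 and 6.58 in the Tifab_KO arrays, so all 3 Tifab_KO arrays were lower. The Snora mean was 6.73, 6.96 and 6.83 against 6.80, 6.60 and 6.55, where Tifab_KO replicate 1 lay above Tifab_WT replicate 1. The Snord median was 6.03, 6.36 and 5.91 against 5.93, 5.94 and 5.90 and overlapped. Over all genes the array medians separated the labels too, the other way and by a small step. They lay at 4.382 to 4.402 in Tifab_WT and 4.434 to 4.467 in Tifab_KO.

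Gene by gene, the median difference was -0.23 over the 26 Snora genes, 16 of them below 0, and -0.082 over the 47 Snord genes, 26 of them below 0, beside a median of 0.00 and 50% below 0 over all genes. The median was -0.13 over all 73 members and also -0.13 over the 503 other genes of at most 250 bases, which were much dimmer. Longer genes had 0.0025. Of those other short genes 22.5% had an unadjusted p under 0.05 in limma, beside 13.7% of members and 9.92% of longer genes. Without Tifab_WT replicate 3 the Snora median became -0.10 and the Snord median turned to 0.0036, and without Tifab_KO replicate 2 the Snora median became -0.12. The Snord median also moved to -0.13, -0.046 and -0.032 without Tifab_WT replicate 1, Tifab_WT replicate 2 and Tifab_KO replicate 3. Differences also moved with signal level over all genes, from a median of -0.17 in the dimmest of 10 equal bands of genes to 0.064 in the middle and 0.049 in the brightest. Taken against the median of its own signal band, the median difference was -0.21 for Snora and -0.14 for Snord. After cyclic loess, which scales arrays along signal, the plain medians were -0.21 and -0.15. After cyclic loess 46 members lay below 0, beside 48.4% of all genes, and 12 had an unadjusted p under 0.05, beside 9.13%. The sign of 4 of the 73 members changed under cyclic loess and of 2 under quantile normalization, and each of these had a difference of 0.06 or less.

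**Figure D2:**
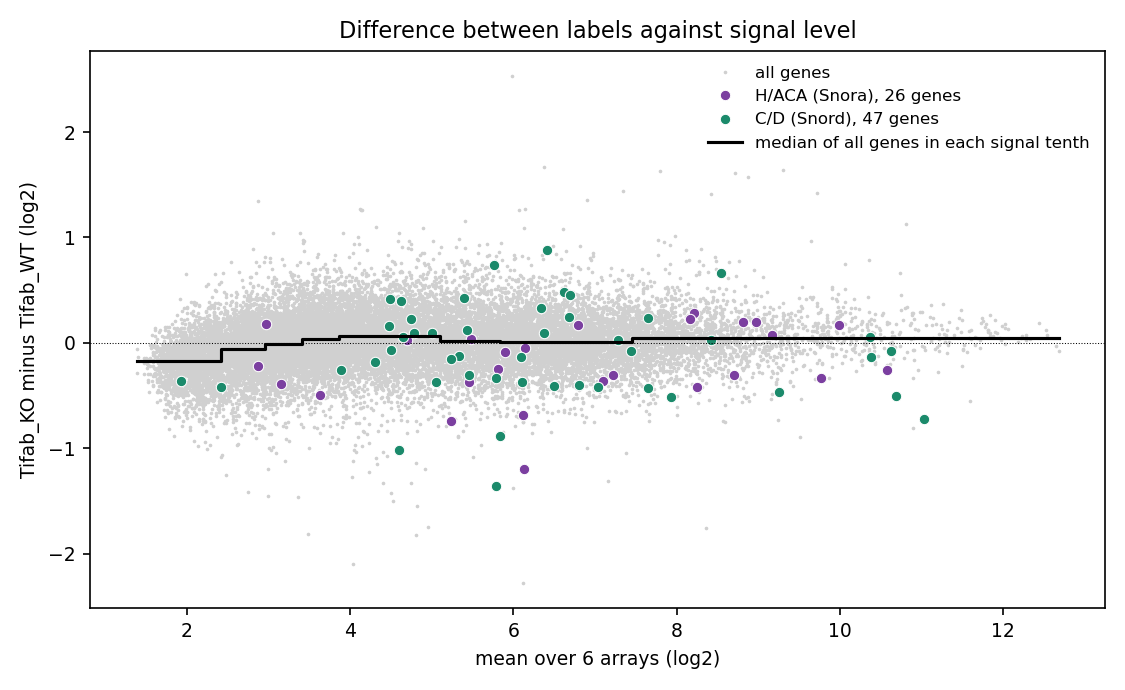
Tifab_KO minus Tifab_WT difference (log2) against the mean over 6 arrays (log2) for all 22180 genes in grey, 26 H/ACA genes in purple and 47 C/D genes in green. The black line is the median difference of all genes in each of 10 signal bands, from -0.17 in the dimmest to 0.049 in the brightest; most members lie in the upper signal range and on both sides of the line, from -1.36 to 0.88.

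The spread between arrays of the same label was wider for snoRNA genes than for other genes of like signal. The within-group SD, pooled over both labels, had a median of 0.39 for Snora and 0.40 for Snord, beside 0.21 over all genes. Divided by the median SD of all genes in the same signal band it was 2.11 for Snora and 1.86 for Snord, and 65 of the 73 members (23 Snora, 42 Snord) were above 1. The SD was larger in Tifab_WT than in Tifab_KO for 17 of 26 Snora and 24 of 47 Snord genes, which together is 56.2% beside 60.6% of longer genes. Other genes with an annotated length of at most 250 bases, 503 in number and mostly microRNA genes, had a median ratio of 1.30 at a much dimmer median level of 2.89, and longer genes 0.99. No test was made of these differences in spread.

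The members with the widest spread were mid-level or dim. Snord73a had a within-group SD of 1.14, with 8.49 in Tifab_KO replicate 3 and 5.43 to 6.62 in the other 5 arrays. Its difference of 0.88 ± 0.62 (SE) became 0.056 without that array. Snora2b had an SD of 1.04 at a mean of 2.97, and Snord49a of 0.95, with Tifab_WT arrays at 5.50, 7.54 and 6.37. At the other end, Snord89 read 10.47, 10.40 and 10.47 in the Tifab_WT arrays and 10.23, 10.21 and 10.49 in the Tifab_KO arrays, an SD of 0.12 and the narrowest of all members. The bright Snora28 (0.17), Snora21 (0.15) and Snord17 (0.16) also had an SD at or near the median of their band, 0.16, while the bright Snora44 and Snord49b had 0.54 and 0.53. In both, the Tifab_WT arrays read highest in replicate 1 and lowest in replicate 3, at 11.50, 10.59 and 10.02 for Snora44, and the Tifab_KO arrays lay between 10.3 and 10.7.

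**Figure D3:**
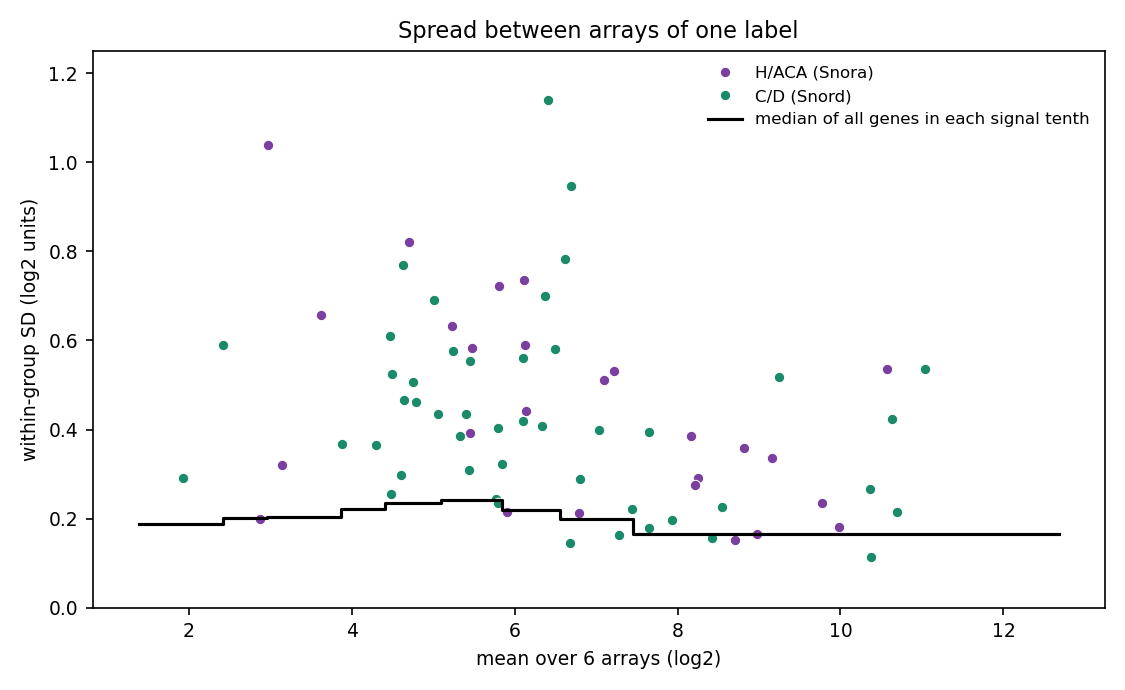
Within-group SD over 3 arrays per label, pooled over both labels (log2 units), against the mean over 6 arrays (log2) for 26 H/ACA genes (purple) and 47 C/D genes (green). The black line is the median SD of all genes in each of 10 signal bands, between 0.16 and 0.24; 65 of 73 members lie above it, and the highest is Snord73a at 1.14.

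In the RefSeq gene table all 73 members were found, 70 of them within the bounds of at least 1 other gene; Snord13, Snord89 and Snord118 lay within none. The table gives no strand, so the enclosing gene was taken without regard to strand. The enclosing gene was single and measured by a probe set of its own for 54 members (22 Snora, 32 Snord) and 40 genes. These genes were bright, with a median level of 9.01, and steady, with a median within-group SD of 0.12 beside 0.40 for their snoRNAs; the SD of the snoRNA was the larger in 49 of 54. At an unadjusted p under 0.05, 4 of the 40 were higher and 0 lower in limma, beside 4.74% higher and 5.51% lower over all genes, and 0 passed the adjusted threshold. Their median difference was 0.016.

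Differences of snoRNAs and of their enclosing genes had the same sign in 22 of 54 cases. Across the 54 members the Pearson correlation of the differences was -0.16 (Spearman -0.14) and that of the levels 0.42 (0.37); members of the same gene share their partner's value, all points share the 6 arrays, and genes are not independent replicates. Rps3a1, the ribosomal protein gene around Snord73b, read 10.78, 10.91 and 10.86 in the Tifab_WT arrays and 11.14, 11.06 and 11.23 in the Tifab_KO arrays. Its difference of 0.29 ± 0.078 (SE, limma adjusted p = 0.342) pointed opposite to that of Snord73b, at -1.36. Gnl3, which encodes nucleostemin and surrounds Snord69, had 0.087 ± 0.11 (SE), the chaperonin gene Tcp1 around Snora20 had 0.13 ± 0.11, and Rpl4 around Snord16a had 0.029 ± 0.063. Rpl17 around Snord58b had -0.050 ± 0.15. A probe set for an intronic snoRNA can also read the unspliced host RNA, and the 2 sources were not told apart.

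**Figure D4:**
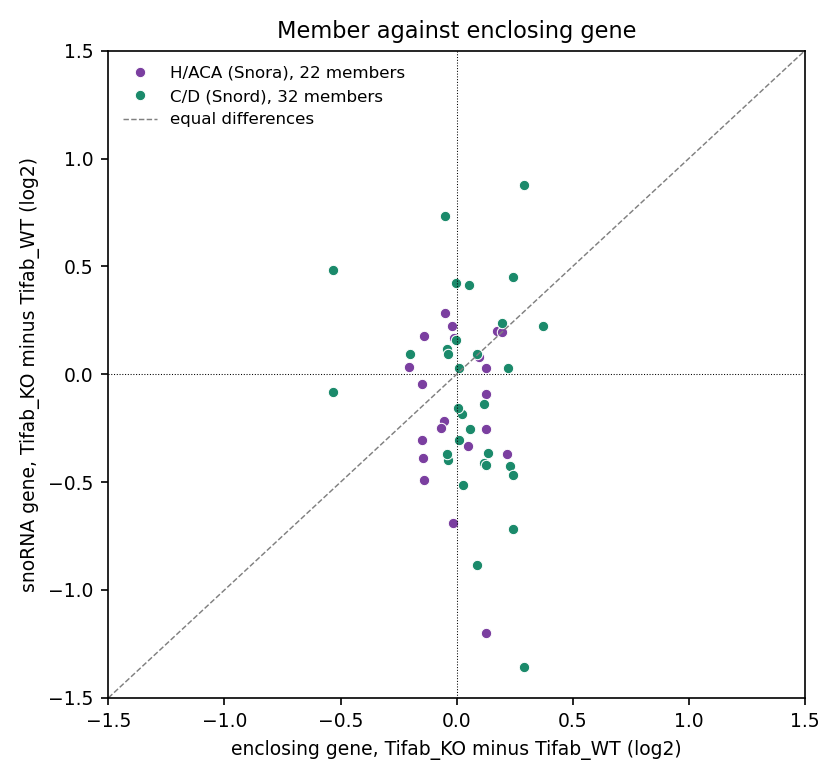
Tifab_KO minus Tifab_WT difference (log2) of 54 snoRNA genes against that of the single measured gene that encloses each, for 22 H/ACA (purple) and 32 C/D (green) members. The dashed line marks equal differences; enclosing genes gather near 0 (median 0.016) while the snoRNAs spread from -1.36 to 0.88.

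Members that lie within the same gene offered a closer comparison, since RNAs in introns of the same gene can come from the same transcripts. There were 11 genes that held several members, 25 in all. Of the 18 pairs so formed, 11 had differences of the same sign and 7 of opposite sign. Snhg12, with 4 members, gave the most pairs, and all of its pairs had the same sign. Pairs that share a member are not independent, and whether the count differs from an even split was not tested. Within Rps3a1, Snord73b had -1.36 and Snord73a 0.88, the latter resting on a single array as above. Within 2410006H16Rik, a long noncoding RNA gene with 11.1 as its own mean level, Snord49b and Snord65 had -0.72 and -0.47 while Snord49a had 0.45, which turned to -0.035 without Tifab_WT replicate 1 and to -0.032 without Tifab_KO replicate 3. Snord65 had -0.24 without Tifab_WT replicate 1 and -0.82 without Tifab_WT replicate 3. Within Snhg12, a noncoding host gene, Snora16a, Snora44, Snora61 and Snord99 had -0.42, -0.25, -0.090 and -0.42, and the host itself 0.13 ± 0.12 (SE); Snora44 turned to 0.14 without Tifab_WT replicate 1. None of these 4 had an unadjusted p under 0.05.

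**Figure D5:**
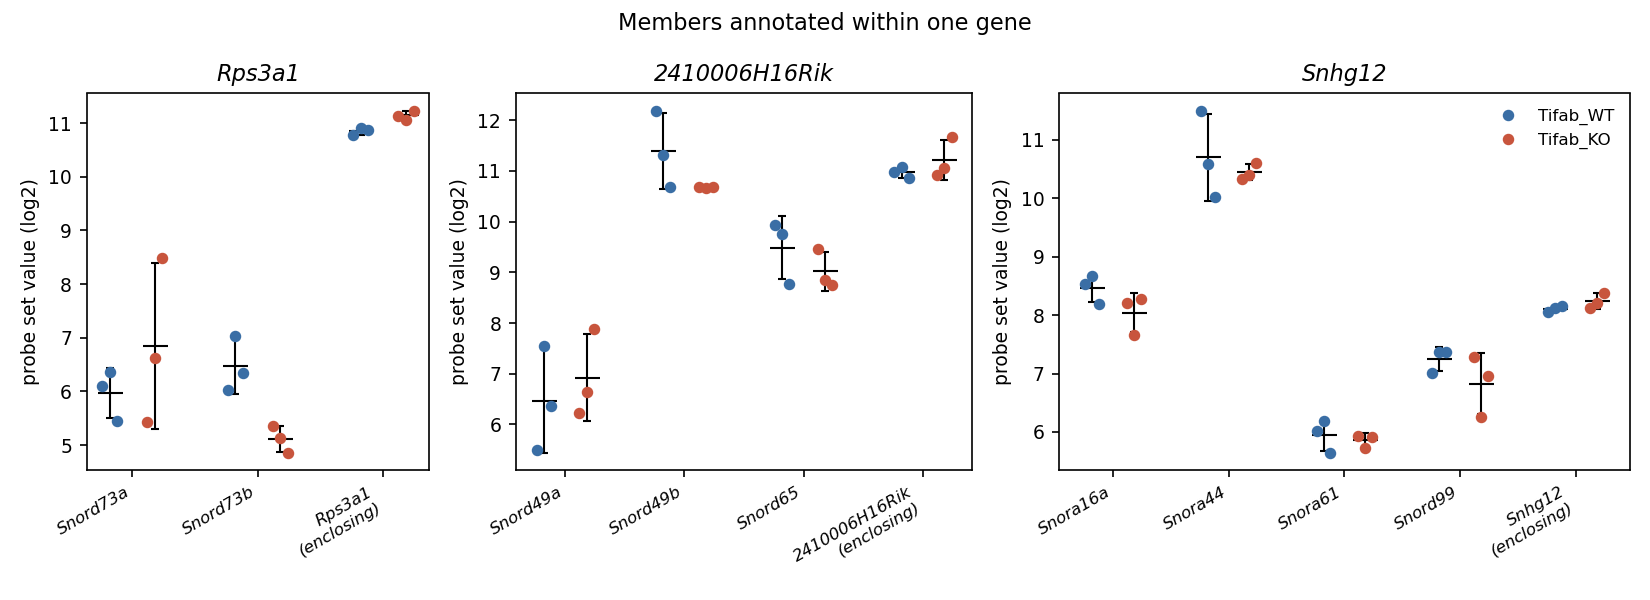
Log2 probe set values by array for the members within Rps3a1, 2410006H16Rik and Snhg12 and for each enclosing gene, with the group mean as a dash and 1 SD as a bar (3 Tifab_WT and 3 Tifab_KO arrays). Of the enclosing genes, Rps3a1 is tight, with SDs of 0.066 and 0.086, and Snhg12 has a pooled within-group SD of 0.10. For 2410006H16Rik that SD is 0.29, equal to the 0.29 of Snora16a. Snord73a spans 5.43 to 8.49 and Snord49a 5.50 to 7.88.

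Host genes of snoRNAs are known for transcripts that begin with a run of pyrimidines, which ties their translation to growth signals. The 20 bases before and 20 after each annotated start were searched for CTTTC in the RefSeq promoter sequences of GRCm38.p6, where 48 of the 63 enclosing genes were found. On the gene's strand 8 of their 52 starts held it (15.4%), beside 5.5% of all 32851 starts in the table, and on the other strand 1 start did (1.9%, beside 4.9%). A match is a description of these letters only. Windows are shown for 7 of these genes, 6 around members with an unadjusted p under 0.05 and Snhg12 for its 4 members, with CTTTC in capitals, read 5′ to 3′ on the gene's strand: Gas5 around Snord47 (chr1:161035146-161035185, plus strand; a further annotated start of Gas5 held no match), Rpl4 around Snord16a (chr9:64173367-64173406, plus), 2410006H16Rik around Snord49b (chr11:62602857-62602896, plus), Snhg12 (chr4:132308658-132308697, plus), and, with no match, Rps3a1 around Snord73b (chr3:86142649-86142688, minus), Gnl3 around Snord69 (chr14:31019112-31019151, minus) and Tcp1 around Snora20 (chr17:12916309-12916348, plus).
Gas5: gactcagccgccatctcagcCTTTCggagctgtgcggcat
Rpl4: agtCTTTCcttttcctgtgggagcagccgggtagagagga
2410006H16Rik: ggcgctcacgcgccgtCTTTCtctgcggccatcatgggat
Snhg12: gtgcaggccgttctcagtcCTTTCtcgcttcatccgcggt
Rps3a1: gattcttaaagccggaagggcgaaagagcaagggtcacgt
Gnl3: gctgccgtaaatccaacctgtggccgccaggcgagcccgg
Tcp1: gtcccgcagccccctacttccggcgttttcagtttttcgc
Rpl23 around Snora21, which was also under an unadjusted p of 0.05, had a window with no match that is not shown. The windows shown therefore do not reflect the share of all these starts with a match, 15.4%. A host value beside Snord47 was not analysed here. Beside the genes with the letters, the Snord47 signal was higher and those of Snord16a and Snord49b were lower in Tifab_KO, and beside the 3 shown without them, those of Snord73b, Snord69 and Snora20 were lower; these few windows were chosen for their snoRNAs and allow no comparison.

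The proteins that bind snoRNAs showed small differences. Of the H/ACA core proteins, the pseudouridine synthase gene Dkc1 had -0.030 ± 0.13 (SE), and its partners Nhp2, Nop10 and Gar1 had -0.090 ± 0.15, -0.10 ± 0.18 and -0.013 ± 0.13. Of the C/D core proteins, Nop56 and Nop58 had 0.011 ± 0.14 and -0.039 ± 0.11, and Snu13 had 0.17 ± 0.085, with 10.1 to 10.3 in Tifab_WT and 10.4 in each Tifab_KO array. The fibrillarin gene Fbl was not measured alone. None of these 7 had an unadjusted p under 0.05, and each of the 6 other than Snu13 changed sign when some single array was left out.

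Among 12 assembly factors, 10 had a difference above 0 with a median of 0.15, and Tgs1, the enzyme that hypermethylates the cap of independently transcribed small RNAs, was alone under an unadjusted p of 0.05 (0.46 ± 0.19, SE, limma adjusted p = 0.457). Among 8 proteins that work with the U3 snoRNA in ribosomal RNA processing, Mphosph10 was the member under that p, at 0.53 ± 0.16 (SE, limma adjusted p = 0.362), without overlap between the groups. Of 15 noncoding snoRNA host transcripts named Snhg, Snhg11 was higher at an unadjusted p under 0.05 (0.48 ± 0.18, SE), 0 were lower, and the median difference was -0.093. Of 5 Cajal body RNAs, relatives of snoRNAs that guide changes in spliceosomal RNAs, Scarna17 read 11.44, 10.71 and 11.76 in the Tifab_WT arrays and 10.64, 10.49 and 10.34 in the Tifab_KO arrays. Its groups did not overlap, and the difference was -0.81 ± 0.22 (SE, limma adjusted p = 0.344); the other 4 lay between -0.40 and 0.12, and Scarna8 and Scarna6 changed sign when some single arrays were left out, which was not run for Scarna10.

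A further 43 probe sets named a small nucleolar RNA together with other genes and so stood outside the comparison of single genes. Of these, 16 named Snord116 copies of a brain-expressed imprinted cluster; all held identical values, with a mean of 4.25 and a difference of 0.0077. Of the other 27, with a median difference of -0.21 and 15 of them below 0 (50.2% of all probe sets with a symbol were), 1 was higher and 4 were lower at an unadjusted p under 0.05. Limma over the 25335 probe sets with a symbol gave 0 calls at an adjusted p under 0.05 and 10.4% at the unadjusted one, 4.84% higher and 5.52% lower. The groups did not overlap for 5 of the 27, beside 16.3% of all probe sets with a symbol (7.84% higher, 8.43% lower).

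The probe set shared by Snord57 and its host Nop56 read 8.09, 7.80 and 7.61 in the Tifab_WT arrays and 7.10, 7.10 and 6.80 in the Tifab_KO arrays. Its difference was -0.83 ± 0.17 (SE, limma adjusted p = 0.266), while the probe set of Nop56 alone had 0.011. Those shared by Snora43 with Snhg7 and by Snord15b with Rps3 had -0.51 ± 0.16 and -0.69 ± 0.21 (SE), and the one shared by Snora81 with Eif4a2 had 0.49 ± 0.14 (SE). The groups did not overlap in any of these 4, which were named after their values were seen.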

How the data were processed

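RNA of 6 samples, 3 per label, was measured with 1 array each. The authors deposited log2 probe set values from Affymetrix Expression Console, per the submitters' processing notes; background correction, summary, normalization and version: not given in the sources used here. Array medians over 41345 probe sets lay between 4.05 and 4.10. In the platform annotation 23521 probe sets had 1 symbol, 1814 several and 16010 were unlisted. Probe sets with several symbols entered no comparison of single genes. The values of 3 members, Snora19 among them, were repeated in another probe set.

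Differences were fitted with limma 3.58.1 in R 4.3.3 (lmFit, eBayes with an intensity trend, genotype as the only term, two-sided, threshold 0.05), tested first on simulated data. The number of arrays limits the precision, and p-values measure the spread between samples.

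Named genes were, per class, the 8 with the smallest p, the 4 with the highest mean, and the processing RNAs; of companion lists, the core proteins and up to 4 genes by smallest p. Snord73a, Snord65, Snord49a, Snord99, Snora61, Snora2b, Snora28, the named markers, Snora35, Snord17 and Snord90 were named after their values were seen. The planned match of hosts by strand was replaced by enclosure alone. Members and lists were chosen with earlier results of these data known. Replicate numbers were not used as pairs in the main fit. The alternatives are given in the closing section.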

Additional observations from a re-analysis of the deposited data

How the results depend on the processing

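Over quantile normalization, cyclic loess, median centring, a filter that drops genes below percentile 40, averaged probe sets, eBayes without trend or robust, array weights and the replicate block, the count of members passing an adjusted p of 0.05 in limma stayed 0. At an unadjusted p under 0.05 there were 8 to 13 members, beside 9.13% to 10.3% of all genes in each setting. With the replicate block, 11 members were lower and 2 higher at that p, beside 8 lower and 2 higher without it and 9.55% of all genes with it. The smallest adjusted p of a member with the block was 0.387 in limma. Same-numbered arrays deviated from their group means with correlations of 0.020, -0.031 and -0.088 over all genes. Those of unlike number had -0.074 to 0.107. With 3 arrays per label these values cannot settle whether the numbers pair the arrays. Adjusted calls were 0 with the block and 0 without it. The Snora median difference moved to -0.17 without dim genes and to -0.18 with the mean of probe sets, and the Snora minus Snord level gap of 0.37 moved to 1.05 without dim genes, where 67 members remain. The class mean in place of the median, chosen after seeing the data, gave -0.19 for Snora and -0.091 for Snord. With cyclic loess Snord118 turned to -0.028 and Nop56 to -0.045.

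Leaving out each array in turn gave 8 to 15 members lower and 2 to 6 higher at an unadjusted p under 0.05, beside 7.35% to 12.2% of all genes under that p. It gave a Snora median of -0.27 to -0.10, a Snord median of -0.13 to 0.0036 and a level gap of 0.42 to 0.59. The differences whose sign turned ranged from -0.59 to 0.14 for Snora44, -0.092 to 0.33 for Snora31, -0.41 to 0.11 for Snord104, -0.10 to 0.26 for Snord118, -0.26 to 0.26 for Snora73a, -0.035 to 0.99 for Snord49a, -0.067 to 0.040 for Dkc1, -0.20 to 0.043 for Nhp2, -0.24 to 0.087 for Nop10, -0.057 to 0.020 for Gar1, -0.086 to 0.13 for Nop56, -0.079 to 0.026 for Nop58, -0.10 to 0.28 for Scarna6 and -0.80 to 0.20 for Scarna8. Over all genes, 1 passed the adjusted threshold without Tifab_WT replicate 3 and 1 without Tifab_KO replicate 2, neither a member. The cause of these moves was not tested, apart from the fewer genes or arrays in each. Signal over background is not given for these arrays, so which dim members were detected is unknown.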
